A study of Mus musculus with 8 samples.

Results

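The solute carriers are the largest class of membrane transport proteins in mammals, and their Slc symbols carry a family number that follows their sequence and, broadly, their substrate. Each one moves sugars, amino acids, metals, phosphate, nucleotide sugars or other small molecules across the plasma membrane or the membrane of an organelle, by facilitated passage or coupled to an ion gradient. In liver cells they set the uptake of nutrients, the exchange of metabolites with mitochondria and the handling of bile acids. The members described here are the mouse genes whose annotated symbol is Slc followed by a number and for which 1 group or more had both arrays at a detection p under 0.05. Of 325 such genes on the array, 153 passed (196 of 473 probes), beside 8183 of 16593 genes over the whole array. Of 51 Slc families on the array, 42 held at least 1 member. The largest were family 25, the mitochondrial carriers, with 27 of 39 genes, and family 35, the nucleotide sugar carriers, with 17 of 24. The symbol rule also took in 4 genes that are not carriers. These are the scaffold genes Slc9a3r1 and Slc9a3r2, and Slc4a1ap and Slc7a6os, named after a neighbouring or binding carrier.

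The cells were MLP-29, an established line of mouse liver progenitors, grown in bovine serum and starved stepwise over days. They then received recombinant hepatocyte growth factor (HGF), which binds the receptor Met, for 1, 6 or 24 h, or control medium, all in the presence of bovine serum. Each of the 4 groups (control, HGF 1 h, HGF 6 h and HGF 24 h) had a biological replicate a and b from 2 runs of the experiment, and each sample was hybridised to 1 single-colour Illumina mouse bead array. The labels give 1 control group with no duration of its own, so changes due to adding medium cannot be told apart from those due to HGF. The RNA came from whole cultures, and a change in a fraction of the cells cannot be told apart from a smaller change in all of them.

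The 8 arrays detected 11569 to 11893 of 25697 probes, and arrays of the same group correlated at 0.990 to 0.993 over all genes tested. Of 7 cholangiocyte and progenitor markers with a probe, 6 were detected on all arrays (Krt7, Krt8, Krt18, Krt19, Sox9 and Cdh1) and Prom1 on none. Of 6 hepatocyte markers, Hnf4a was detected on all arrays, Ttr on 1, and Alb, Afp, Apoa1 and Serpina1a on none. None of 4 haematopoietic and none of 4 endothelial markers with a probe was detected on any array, and of 5 stellate and fibroblast markers only Acta2 was, on 4 arrays.

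The first question was which carriers these cells express. Of the 153 members, 124 were detected on both arrays of all 4 groups, 8 in 3 groups, 12 in 2 groups and 9 in 1 group, and 12 were undetected on both arrays of at least 1 group by the probe that represents them. For 1 of these, Slc28a3, another probe was detected there. The ADP/ATP carrier Slc25a5, the ATP carrier of the endoplasmic reticulum Slc35b1 and the sodium, potassium and chloride cotransporter Slc12a2 were detected throughout and passed no test against control. The hepatocyte carriers Slc2a2, a glucose transporter, and Slc10a1, the sodium-dependent bile acid uptake carrier, did not pass the detection rule. The same held for the monocarboxylate carriers Slc16a1 and Slc16a3, the glutamine carriers Slc1a5 and Slc38a1, and the zinc and iron carrier Slc39a14. At the edge of the detection rule, the arginine carrier Slc7a1 and the lysosomal amino acid carrier Slc36a1 just passed, with a detection p of 0.0476 and 0.0489 on the worse array of their best group. Slc16a3 and the sulfate carrier Slc26a2 just missed it, with 0.0526 and 0.0551.

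After 1 h in HGF few carriers had changed, and they moved different kinds of cargo. A mitochondrial nucleotide carrier, a zinc exporter and the main basal glucose carrier rose 2.07- to 3.13-fold, and a lysosomal hexose carrier and a mitochondrial basic amino acid carrier fell. By limma with Benjamini-Hochberg adjustment over all 8183 genes (a call is an adjusted p under 0.05), 3 members were higher and 2 lower. Over all genes tested, 2.63% were called higher and 2.16% lower, beside 1.96% and 1.31% of the members. All values below are log2 intensities after background correction and quantile normalisation, with replicate a before b, and each change is given as log2 with its standard error. They may be compared between groups for 1 gene, not between genes, because each probe has its own brightness.

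Slc25a25 encodes a calcium-regulated carrier that exchanges ATP-magnesium for phosphate across the inner mitochondrial membrane. It read 8.47 and 8.60 in control, 10.26 and 10.11 at 1 h, 8.89 and 9.12 at 6 h, and 8.39 and 8.70 at 24 h. Both arrays at 1 h lay above all other arrays, and those at 24 h overlapped control. The rise at 1 h was 1.65 ± 0.15, or 3.13-fold (adjusted p = 0.00139). This was the one call at 1 h that held in each of the 8 fits that left out 1 array. By 6 h the difference from control was 0.47 ± 0.15 (adjusted p = 0.0677, and 0.0441 when the replicate letter was fitted as a block). The level fell by 1.18 from 1 to 6 h (adjusted p = 0.00323).

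The promoter of Slc25a25 is shown because the gene rose at 1 h and its RefSeq window held a cyclic AMP response element, the site of CREB and ATF factors. The window spans 250 bases before to 50 after an annotated start (chr2:32424017-32424316, minus strand, GRCm38.p6), printed from 5′ to 3′ along the gene, with the match in capitals.
Slc25a25: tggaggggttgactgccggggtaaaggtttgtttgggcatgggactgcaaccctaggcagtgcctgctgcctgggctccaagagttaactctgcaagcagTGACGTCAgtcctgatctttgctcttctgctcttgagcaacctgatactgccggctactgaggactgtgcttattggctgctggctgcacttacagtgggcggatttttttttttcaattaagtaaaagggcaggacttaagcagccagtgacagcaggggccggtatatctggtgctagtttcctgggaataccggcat
The motif TGACGTCA is its own reverse complement, begins 150 bases before the start and was found in 1 of the 3 windows of this gene. It is present in 1.79% of all 32851 promoter windows and in 1.16% of the 172 windows of the 126 members that matched the table. The AP-1 motif TGANTCA, searched on both strands, had no match in the 5 windows of the 3 genes that rose at 1 h. It is in 7.81% of all windows and in 3.49% of the windows of members. A count from 5 windows is too small to set against these shares.

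Slc30a1 encodes ZnT1, the exporter of zinc at the plasma membrane. Its arrays read 8.28 and 8.41 in control and 9.81 and 9.09 at 1 h, then 8.01 and 8.18 at 6 h and 8.04 and 7.94 at 24 h. The 1 h arrays stood above every other array but differed from each other by more than any other pair. The change at 1 h was 1.11 ± 0.22, or 2.16-fold (adjusted p = 0.0342). The call was lost in 7 of the 8 fits that left out 1 array, with the highest adjusted p, 0.175, without control replicate a. It was also lost with median scaling of the arrays (adjusted p = 0.0883). From 1 to 6 h the level fell by 1.36 ± 0.22 (adjusted p = 0.00731).

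The Slc30a1 promoter window (chr1:191906531-191906830, plus strand, GRCm38.p6) is printed for its metal response element cores, the binding site of the zinc sensor Mtf1, which are in capitals.
Slc30a1: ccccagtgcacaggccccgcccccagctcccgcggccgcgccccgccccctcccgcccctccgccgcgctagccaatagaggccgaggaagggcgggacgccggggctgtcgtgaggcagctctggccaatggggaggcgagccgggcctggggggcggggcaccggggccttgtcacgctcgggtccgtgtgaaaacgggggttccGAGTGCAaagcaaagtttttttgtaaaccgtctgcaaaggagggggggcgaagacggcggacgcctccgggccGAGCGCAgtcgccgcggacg
The cores searched were TGCACNC and TGCGCNC on both strands. The window held 2, both on the opposite strand, where they read TGCACTC and TGCGCTC. At least 1 core is in 25.7% of all windows and in 33.7% of the windows of members, so a match alone is common.

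Slc2a1 encodes the glucose carrier GLUT1, which supplies basal glucose uptake in many dividing cells. It read 11.61 and 11.999 in control, 12.92 and 12.79 at 1 h, 12.17 and 12.47 at 6 h, and 12.06 and 12.39 at 24 h. No HGF array overlapped control, and the 1 h arrays were the highest. The rise was 1.05 ± 0.19 at 1 h (2.07-fold, adjusted p = 0.0224). It was 0.51 ± 0.19 at 6 h (adjusted p = 0.091, and 0.0428 with the block) and 0.42 ± 0.19 at 24 h (adjusted p = 0.269). Without control replicate a the 1 h call had an adjusted p of 0.133.

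Slc2a6, a hexose carrier of lysosomal membranes (GLUT6), moved the other way. Its values were 7.19 and 7.42 in control, 6.25 and 5.78 at 1 h, 7.26 and 7.35 at 6 h, and 6.36 and 6.74 at 24 h. The 1 h arrays were the lowest, and 1 of them was not above background. The change was -1.29 ± 0.20 at 1 h (adjusted p = 0.0129) and 0.00 ± 0.20 at 6 h (adjusted p = 0.994). At 24 h the difference from control was -0.75 ± 0.20, which did not pass (adjusted p = 0.129). The rise from 1 to 6 h was 1.29 ± 0.20 (adjusted p = 0.00605).

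Slc25a29, a mitochondrial carrier of basic amino acids, was detected on both control arrays and on no HGF array. It read 6.40 and 6.10 in control, 5.45 and 5.36 at 1 h, 5.77 and 5.69 at 6 h, and 5.55 and 5.76 at 24 h. Because it was not above background after HGF, only a bound can be given. It was at least 1.34-fold lower at 1 h (adjusted p = 0.0211) and at least 1.27-fold lower at 6 h (adjusted p = 0.0406). Both calls were lost in the table normalised by the authors (adjusted p = 0.0599 and 0.141). Slc25a29 passed the detection rule only through control, where it was high, so its fall is not independent of that rule.

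Slc20a1, the sodium-coupled phosphate carrier PiT1, had a larger mean change than the zinc and glucose carriers and did not pass. It read 6.28 and 7.10 in control, 7.98 and 8.16 at 1 h, 7.87 and 7.72 at 6 h, and 6.47 and 7.71 at 24 h. The arrays at 1 and 6 h lay above both control arrays, which were wide apart, and the 24 h arrays spanned the range. The difference was 1.38 ± 0.40 at 1 h (adjusted p = 0.107, and 0.0382 with the block). With the block 8 members were called higher and 3 lower at 1 h, beside 4.58% and 4.46% of all genes. Beside Slc20a1, those it added were the thiamine carrier Slc19a2, the pyrimidine nucleotide carrier Slc25a33, Slc7a14 and Slc66a2 among the higher ones, and Slc25a44, a mitochondrial carrier of branched-chain amino acids, among the lower.

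**Figure D1:**
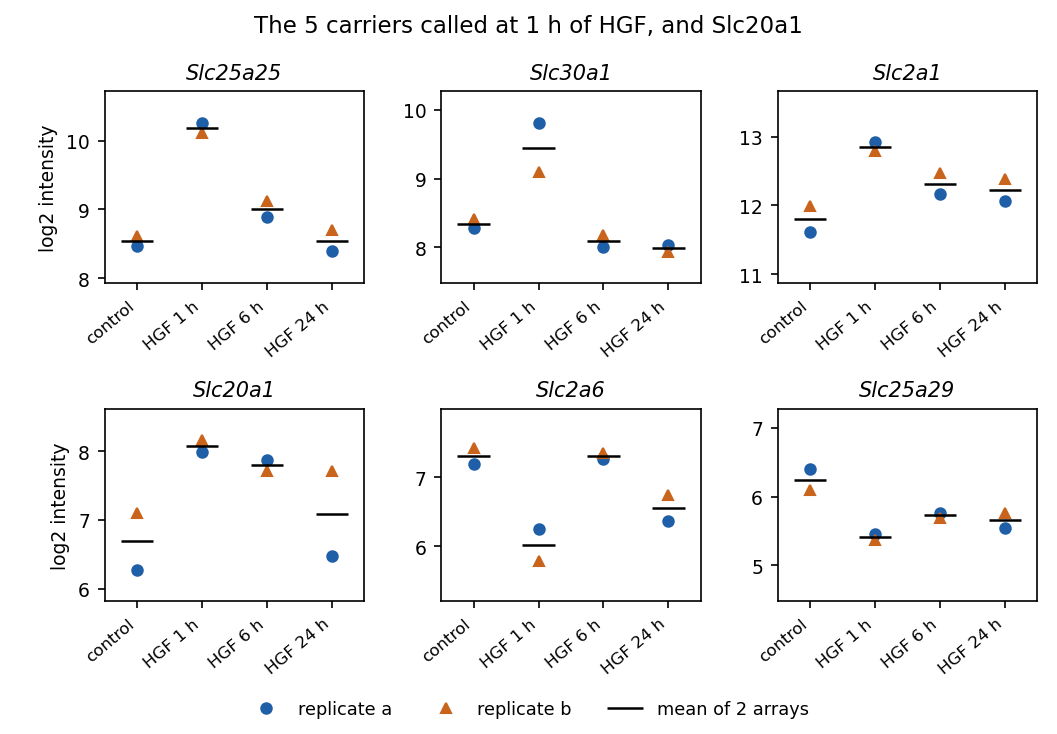
Log2 intensity of the 5 members called at 1 h and of Slc20a1 on each of the 8 arrays; circles are replicate a, triangles replicate b, and bars the mean of 2 arrays. Every panel spans the same log2 range. Slc25a25, Slc30a1 and Slc2a1 peak at 1 h, Slc2a6 has its lowest arrays there, and the 2 control arrays of Slc20a1 lie at 6.28 and 7.10.

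At 6 h of HGF the carriers showed their widest change: 12 members were higher and 25 lower than control. Carriers of amino acids, mitochondrial dicarboxylates and citrate, iron, zinc and choline were among the lower ones, and carriers of phosphate, folate and GDP-fucose among the higher ones. The called carriers of citrate, choline and GDP-fucose each had another probe that did not pass. The calls for iron and zinc, among others, were lost in some fits that left out 1 array. Over all genes tested, 9.28% were called higher and 12.1% lower, and among members 7.84% and 16.3%. The median change of the 153 members was -0.02, and that of all genes was -0.03. With median scaling in place of quantile normalisation, the split was 4 higher and 26 lower, and the median of all genes moved to -0.16. The 4 that stayed higher were Slc20a2, Slc17a6, Slc19a1 and Slc1a2. Of these, Slc17a6 passed the detection rule only through its 6 h arrays. With the block, 18 members were higher and 31 lower, beside 12.5% and 16.3% of all genes.

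Each array of the 2 groups weighed on that count. It was 23 without control replicate a, 18 without control replicate b, 17 without HGF 6 h replicate a and 18 without HGF 6 h replicate b, against 37 with all arrays. The calls that held in each of the 8 fits were 3 higher (Slc20a2, Slc19a1 and Slc25a32) and 7 lower (Slc1a4, Slc46a3, Slc6a9, Slc38a2, Slc25a10, Slc12a7 and Slc7a7). The other 27 were lost in at least 1 such fit, at adjusted p up to 0.189.

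**Figure D2:**
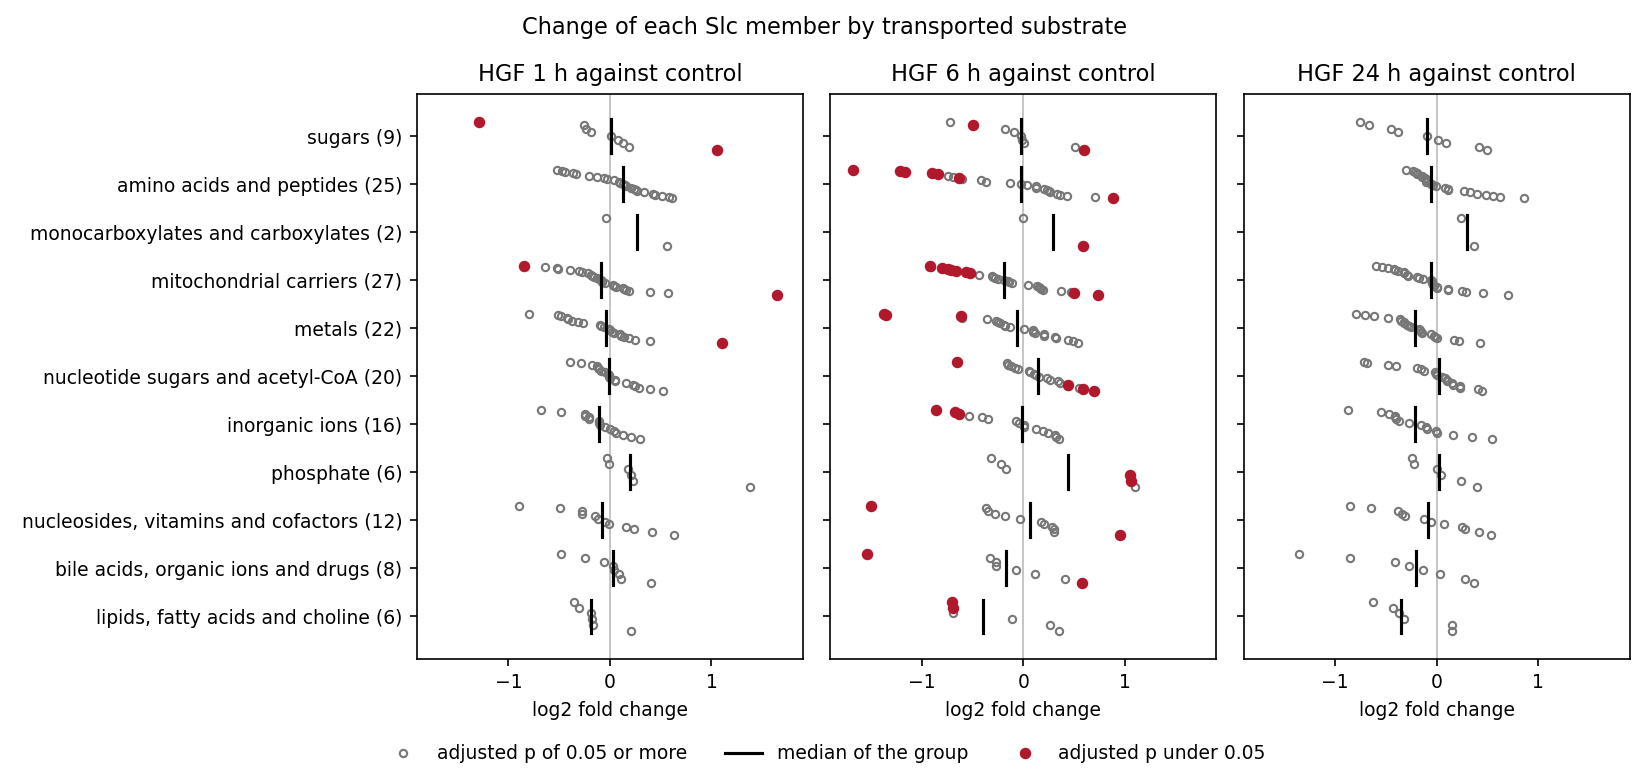
Log2 fold change of each member against control at 1, 6 and 24 h, by the substrate group of its family number, with the number of members in brackets. Filled points have an adjusted p under 0.05, open points do not, and vertical bars are group medians. Filled points number 5 at 1 h, 37 at 6 h and 0 at 24 h.

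Amino acid and peptide carriers made up 25 of the members, and at 6 h 6 of them were lower and 1 higher. Over all genes tested, 12.1% were lower and 9.28% higher, and these shares also belong beside the counts of the groups below. The median change of the 25 was -0.02, with 12 positive and 13 negative changes. The 6 were the neutral amino acid exchanger Slc1a4, the glycine carrier Slc6a9, the small neutral amino acid carrier Slc38a2, the creatine carrier Slc6a8, the cationic and neutral amino acid exchanger Slc7a7, and Slc66a1, which exports cationic amino acids from lysosomes. With median scaling all 6 stayed lower.

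Slc1a4 encodes ASCT1, which exchanges serine, alanine and other small neutral amino acids. It read 10.72 and 11.14 in control, 10.43 and 10.39 at 1 h, 8.92 and 9.58 at 6 h, and 10.74 and 11.04 at 24 h. The 6 h arrays were below all others, and the 24 h arrays lay within the control range. The change at 6 h was -1.68 ± 0.24, a 3.20-fold fall (adjusted p = 0.00411), and at 24 h -0.04 ± 0.24 (adjusted p = 0.948). The recovery from 6 to 24 h was 1.64 ± 0.24 (adjusted p = 0.00622).

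The promoter windows of Slc1a4 (chr11:20332664-20332963, minus strand) and Slc7a7 (chr14:54417895-54418194, minus strand; both GRCm38.p6) are shown because both genes fell at 6 h and hold a match to the C/EBP-ATF response element. This element is bound by Atf4 in the response to amino acid shortage. The matches are in capitals.
Slc1a4: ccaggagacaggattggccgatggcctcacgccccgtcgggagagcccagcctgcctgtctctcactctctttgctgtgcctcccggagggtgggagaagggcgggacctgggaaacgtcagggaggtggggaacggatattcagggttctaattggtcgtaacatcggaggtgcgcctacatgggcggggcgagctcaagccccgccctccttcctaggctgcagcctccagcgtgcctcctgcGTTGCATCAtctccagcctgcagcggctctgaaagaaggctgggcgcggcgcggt
Slc7a7: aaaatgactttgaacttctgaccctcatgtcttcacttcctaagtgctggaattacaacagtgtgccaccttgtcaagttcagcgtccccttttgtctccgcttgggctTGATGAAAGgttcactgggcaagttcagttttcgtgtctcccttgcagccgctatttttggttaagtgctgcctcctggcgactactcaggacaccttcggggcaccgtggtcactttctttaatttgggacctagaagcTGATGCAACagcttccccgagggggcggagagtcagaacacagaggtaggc
The motif searched was TGATGNAAN on both strands. In Slc1a4 it lies across the start on the opposite strand, where it reads TGATGCAAC. Slc7a7 has TGATGAAAG 141 bases before this start and TGATGCAAC across it, and 2 of its 5 windows hold a match. The motif is in 3.95% of all windows and 3.49% of the windows of members. Of the 6 amino acid carriers lower at 6 h, 5 had a window and 2 of these a match, a number too small to set against the share in all windows.

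Slc6a9 encodes the glycine carrier GLYT1. Its values were 12.32 and 12.46 in control, 11.99 and 12.14 at 1 h, 11.02 and 11.33 at 6 h, and 12.80 and 13.09 at 24 h. The groups were all apart, with 6 h lowest and 24 h highest. The change was -1.21 ± 0.16 at 6 h (adjusted p = 0.003). At 24 h it was 0.55 ± 0.16 (adjusted p = 0.147, and 0.0435 with the block). Between 6 and 24 h it rose by 1.77 ± 0.16 (adjusted p = 0.00181), the largest rise of any member between these times.

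Slc38a2 encodes SNAT2, a sodium-coupled carrier of small neutral amino acids that cells raise when amino acids run short. It read 12.78 and 13.31 in control, 12.62 and 12.52 at 1 h, 11.92 and 11.84 at 6 h, and 12.70 and 12.95 at 24 h. The 6 h arrays were the lowest, and those at 1 h also lay below control. The fall at 6 h was -1.16 ± 0.19 (adjusted p = 0.00649), and a second probe of the gene gave -0.82 (adjusted p = 0.0296). It then rose by 0.95 ± 0.19 to 24 h (adjusted p = 0.0175).

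The other falls in this group were smaller. Slc7a7, the light chain of the y+L exchanger, read 9.13 and 9.16 in control and 8.40 and 8.21 at 6 h, a change of -0.84 ± 0.13 (adjusted p = 0.00534), with a second probe at -0.63 (adjusted p = 0.0195). Slc6a8, which imports creatine, read 11.65 and 11.99 in control, 12.12 and 12.41 at 1 h, and 10.76 and 11.07 at 6 h. Its change at 6 h was -0.90 ± 0.25 (adjusted p = 0.0382, and 0.165 without control replicate b), and it fell by 1.35 ± 0.25 from 1 to 6 h (adjusted p = 0.0118). Slc66a1 changed by -0.63 ± 0.15 (adjusted p = 0.0262, and 0.109 without control replicate b).

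The 2 chains of the large neutral amino acid exchanger did not pass at 6 h. Slc7a5, its transport chain LAT1, read 13.62 and 13.81 in control, 13.33 and 13.69 at 1 h, 12.87 and 13.36 at 6 h, and 13.82 and 14.14 at 24 h. Both 6 h arrays were below control, and the difference was -0.60 ± 0.21 (adjusted p = 0.0804, and 0.011 with the block). From 6 to 24 h it rose by 0.87 (adjusted p = 0.034). Slc3a2, the heavy chain shared with Slc7a7, differed by -0.69 ± 0.31 at 6 h (adjusted p = 0.155), with arrays of 7.83 and 8.43 in control against 7.42 and 7.46. The lysosomal glutamine carrier Slc38a7 differed by -0.74 ± 0.23 at 6 h (adjusted p = 0.0593, and 0.0168 with the block).

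The 1 amino acid carrier called higher at 6 h was Slc1a2, the glutamate carrier GLT-1. It read 5.89 and 5.26 in control, 5.99 and 5.42 at 1 h, 6.35 and 6.57 at 6 h, and 5.98 and 6.13 at 24 h. It was detected on 1 of 2 arrays in control and at 1 h and on both later. The change was 0.88 ± 0.25 (adjusted p = 0.0425), and without control replicate b the adjusted p was 0.184. Slc7a1, the arginine carrier CAT1, was undetected on both control arrays and detected on 1 array at 1 h, 1 at 6 h and both at 24 h. Its 6 h mean was 1.13-fold above the bound for control, but 1 of the 6 h arrays was itself undetected. The difference at 6 h did not pass (adjusted p = 0.12, and 0.0376 with the block).

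**Figure D3:**
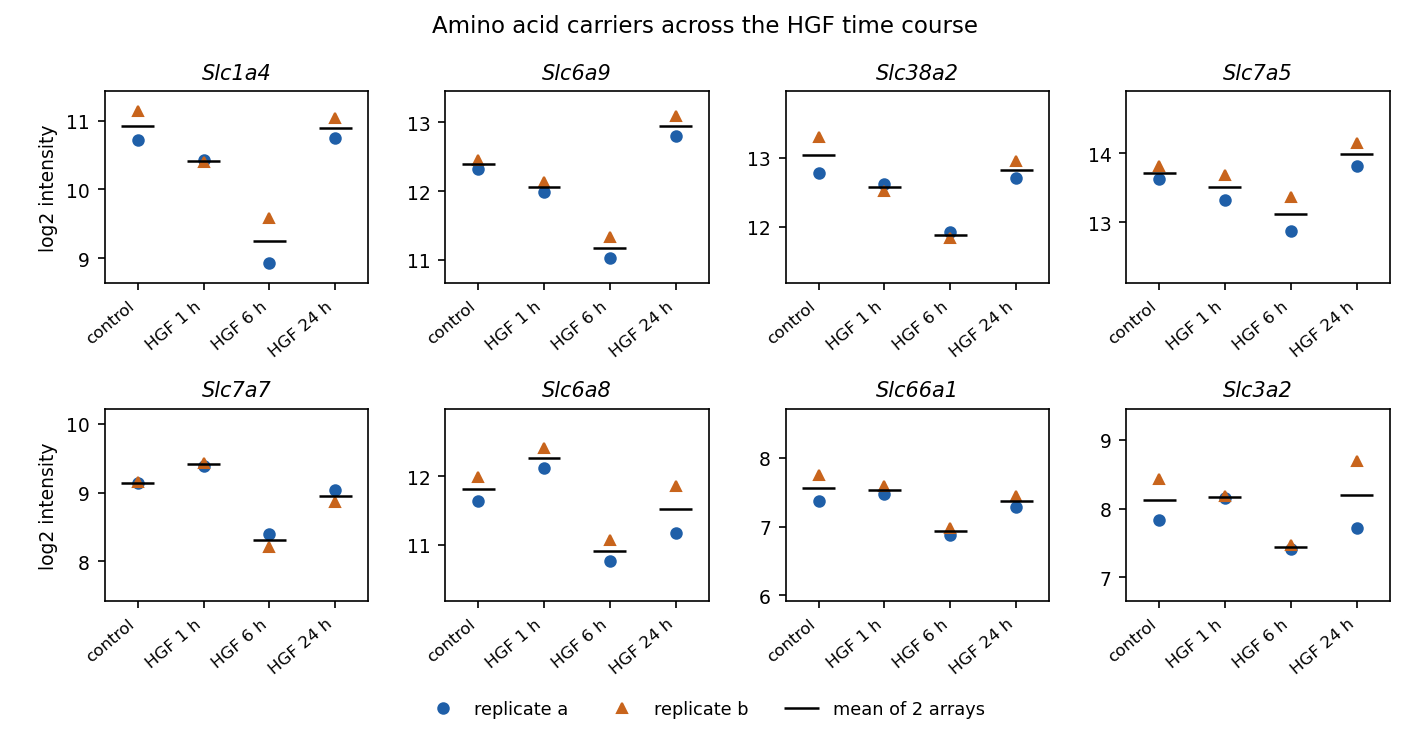
Log2 intensity of 8 amino acid and creatine carriers on each array; circles are replicate a, triangles replicate b, and bars the mean of 2 arrays. All 8 have their lowest mean at 6 h; the difference from control passed for 6 of them, not for Slc7a5 and Slc3a2.

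The mitochondrial carriers of family 25 were the largest group. Of 27 members, 7 were lower and 2 higher at 6 h, beside 12.1% and 9.28% of all genes, with a median of -0.19. The 7 were the dicarboxylate carrier Slc25a10, the citrate carrier Slc25a1, the branched-chain amino acid carrier Slc25a44, Slc25a45, the pyrimidine nucleotide carrier Slc25a36, Slc25a14 and Slc25a29. Without control replicate a the number lower was 2, without control replicate b 4 and without HGF 6 h replicate a 3.

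Slc25a10 exchanges malate and succinate for phosphate. It read 11.11 and 10.85 in control, 10.41 and 10.54 at 1 h, 10.03 and 10.08 at 6 h, and 10.70 and 10.42 at 24 h. All HGF arrays lay below both control arrays, and those at 6 h were the lowest. The change at 6 h was -0.92 ± 0.15 (adjusted p = 0.00627). Slc25a1 exports citrate for fatty acid and sterol synthesis. It read 12.06 and 12.15 in control and 11.14 and 11.47 at 6 h, a change of -0.80 ± 0.15 (adjusted p = 0.0108). A second probe of Slc25a1 gave -0.12 (adjusted p = 0.709), so its probes disagree.

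Among the other falls of family 25 at 6 h, Slc25a44 changed by -0.74 ± 0.15 (adjusted p = 0.0153) and Slc25a45 by -0.71 ± 0.13 (adjusted p = 0.0103). Slc25a36 changed by -0.66 ± 0.18 (adjusted p = 0.0363) and rose by 0.91 from 6 to 24 h (adjusted p = 0.0171). Slc25a14 changed by -0.57 ± 0.13 (adjusted p = 0.0223). Leaving out 1 array ended the 6 h call of each of these 4 genes, with the highest adjusted p from 0.052 for Slc25a45 to 0.158 for Slc25a36. With the block 9 members of family 25 were lower and 3 higher at 6 h, beside 16.3% and 12.5% of all genes. The added lower ones were Slc25a48 (-0.91 ± 0.29, adjusted p = 0.0622, and 0.00486 with the block) and the aspartate and glutamate carrier Slc25a12 (-0.44 ± 0.16, adjusted p = 0.0926, and 0.0363 with the block), and the higher one was Slc25a25.

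Slc25a33, which like Slc25a36 carries pyrimidine nucleotides into mitochondria, followed its own course. It read 10.24 and 10.53 in control, 10.88 and 11.03 at 1 h, 9.90 and 10.24 at 6 h, and 10.97 and 11.20 at 24 h. The arrays at 1 and 24 h were above control, and those at 6 h were not. The difference from control passed at no time without the block. It fell by 0.88 from 1 to 6 h (adjusted p = 0.0149) and rose by 1.01 ± 0.17 from 6 to 24 h (adjusted p = 0.0102).

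The 2 higher members of family 25 were the folate carrier Slc25a32 and the ornithine carrier Slc25a15. Slc25a32 brings folate into mitochondria, and Slc19a1, the reduced folate carrier, brings it into the cell. Slc19a1 read 9.68 and 9.65 in control, 9.27 and 9.51 at 1 h, 10.60 and 10.64 at 6 h, and 10.23 and 10.16 at 24 h. Slc25a32 read 8.60 and 8.56 in control, 8.81 and 8.72 at 1 h, 9.46 and 9.16 at 6 h, and 8.43 and 8.34 at 24 h. For both, the 6 h arrays were the highest of all. At 24 h Slc19a1 was still above both control arrays, whereas Slc25a32 was below them. Slc19a1 rose by 0.95 ± 0.12 at 6 h, or 1.94-fold (adjusted p = 0.00292). Slc25a32 rose by 0.73 ± 0.14, or 1.66-fold (adjusted p = 0.0103, and 0.127 with median scaling). Slc25a15 rose by 0.50 ± 0.15 (adjusted p = 0.0462, and 0.426 with median scaling), and from 6 to 24 h it fell by 0.55 (adjusted p = 0.0463).

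In the phosphate group, formed by family number, 2 of 6 members were higher at 6 h and none was lower, beside 9.28% and 12.1% of all genes. Of the 6, 4 belong to family 17, which also holds carriers of other anions, and 2 to family 20. Slc20a2, the sodium-coupled phosphate carrier PiT2, read 11.41 and 11.70 in control, 11.79 and 11.69 at 1 h, 12.63 and 12.61 at 6 h, and 11.52 and 11.60 at 24 h. The 6 h arrays were well above all others, which overlapped. The rise was 1.06 ± 0.13, or 2.09-fold (adjusted p = 0.00259), and it fell by 1.06 ± 0.13 to 24 h (adjusted p = 0.00411). Slc20a1, its close relative described above, differed by 1.10 ± 0.40 at 6 h (adjusted p = 0.0887, and 0.0366 with the block). The other called member was Slc17a6, of a family of phosphate and anion carriers, which loads glutamate into synaptic vesicles in neurons. It was undetected except at 6 h, where it read 6.60 and 6.09, and was at least 1.38-fold higher than control (adjusted p = 0.0203). It passed the detection rule only through its 6 h arrays, where it was high, so this call is not independent of that rule. With a detection p under 0.01 it did not enter the test.

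Of the 22 metal carriers, 3 were lower at 6 h and none was higher. Over all genes 12.1% were lower and 9.28% higher (16.3% and 12.5% with the block). With the block 4 metal carriers were lower and 2 higher. The additions were the zinc carriers Slc39a3 (-0.60 ± 0.19, adjusted p = 0.0577, and 0.0313 with the block), Slc39a6 (0.44 ± 0.16, 0.0848 and 0.0279) and Slc39a7 (0.49 ± 0.19, 0.104 and 0.0355). Slc40a1 encodes ferroportin, the exporter of iron. It read 8.23 and 7.71 in control, 7.80 and 7.51 at 1 h, 6.91 and 6.28 at 6 h, and 7.86 and 6.84 at 24 h. The 6 h arrays were below control, and replicate a lay above replicate b in every group. The change was -1.38 ± 0.36 (adjusted p = 0.0323, and 0.155 without HGF 6 h replicate b). With the block, its adjusted p was 0.00241.

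Slc39a10 encodes ZIP10, a zinc importer. It read 7.29 and 8.07 in control, 7.36 and 6.40 at 1 h, 6.25 and 6.41 at 6 h, and 6.73 and 7.04 at 24 h. The 6 h and 24 h arrays were below control, and the pairs in control and at 1 h were wide apart. The change at 6 h was -1.35 ± 0.35 (adjusted p = 0.0305, and 0.143 without control replicate b). Slc41a3, of the magnesium carrier family, changed by -0.62 ± 0.16 (adjusted p = 0.0333), while its second probe gave -0.24 (adjusted p = 0.575). The copper importer Slc31a1 differed by -0.35 ± 0.12 at 6 h, which did not pass (adjusted p = 0.0819).

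Of the 20 carriers of nucleotide sugars and acetyl-CoA, 3 were higher and 1 lower at 6 h, beside 9.28% and 12.1% of all genes. The median of the 20 was 0.14, and 14 had a positive change. Slc35c1, which brings GDP-fucose into the Golgi, read 11.71 and 11.46 in control, 11.73 and 11.88 at 1 h, 12.33 and 12.22 at 6 h, and 12.01 and 12.05 at 24 h. It rose by 0.69 ± 0.13 at 6 h (adjusted p = 0.0116), with a second probe at 0.23 (adjusted p = 0.314). Slc35g1 rose by 0.59 ± 0.16 (adjusted p = 0.0353) and Slc35e1 by 0.44 ± 0.13 (adjusted p = 0.0469). With median scaling none of these 3 rises was called, at adjusted p = 0.0817, 0.262 and 0.386. Slc35a5 changed by -0.65 ± 0.15 (adjusted p = 0.0202), and its 24 h arrays of 7.05 and 6.92 were also below control, at 7.84 and 7.56.

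Of 12 carriers of nucleosides, vitamins and cofactors, Slc19a1 was higher and Slc46a3 lower at 6 h. Slc46a3 is a lysosomal carrier. It read 6.80 and 7.10 in control, 6.35 and 5.75 at 1 h, 5.21 and 5.68 at 6 h, and 5.86 and 6.31 at 24 h. All HGF arrays were below control, and at 6 h neither was above background. It was at least 2.05-fold lower at 6 h (adjusted p = 0.00809).

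Among 8 carriers of bile acids, organic ions and drugs, Slc22a14 was lower and Slc10a3 higher. Slc22a14 read 6.87 and 6.91 in control and 6.88 and 5.94 at 1 h, and was undetected on both arrays at 6 h and at 24 h. It was at least 1.98-fold lower at 6 h (adjusted p = 0.0138). At 24 h it was at least 2.07-fold lower, which passed with the block (adjusted p = 0.0269) and not without it (adjusted p = 0.101). Slc10a3, a member of the bile acid carrier family by sequence, rose by 0.58 ± 0.12 at 6 h (adjusted p = 0.0148, and 0.192 with median scaling).

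The calls at 6 h in the remaining groups were as follows. Of 16 members of the inorganic ion families, 3 were lower at 6 h, and just 1 of these is a carrier. This was Slc12a7, the potassium and chloride cotransporter KCC4, which read 8.26 and 7.97 in control, 8.19 and 8.04 at 1 h, 7.19 and 7.32 at 6 h, and 7.60 and 7.69 at 24 h. It changed by -0.86 ± 0.14 at 6 h (adjusted p = 0.00706). The other two were the scaffolds Slc9a3r1 and Slc9a3r2, with -0.68 ± 0.20 (adjusted p = 0.0471) and -0.64 ± 0.17 (adjusted p = 0.0326). The anion exchanger Slc4a2 differed by -0.41 ± 0.15 at 6 h (adjusted p = 0.0899, and 0.0372 with the block).

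Both choline carriers of family 44 were lower at 6 h. Slc44a2 changed by -0.70 ± 0.15 (adjusted p = 0.016) and Slc44a1 by -0.69 ± 0.18 (adjusted p = 0.0291). Each had another probe that did not pass, at 0.21 (adjusted p = 0.736) and -0.05 (adjusted p = 0.929), so the probes of these genes disagree. Among 9 sugar carriers, the intracellular hexose carrier Slc2a8 changed by -0.50 ± 0.11 (adjusted p = 0.0199). Slc45a3 rose by 0.60 ± 0.14 (adjusted p = 0.0211, and 0.243 with median scaling). Of 2 carboxylate carriers that passed the detection rule, Slc16a13 rose by 0.59 ± 0.16 (adjusted p = 0.0403, and 0.123 with median scaling). In total 33 members had several probes, and none had probes called in opposite directions.

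**Figure D4:**
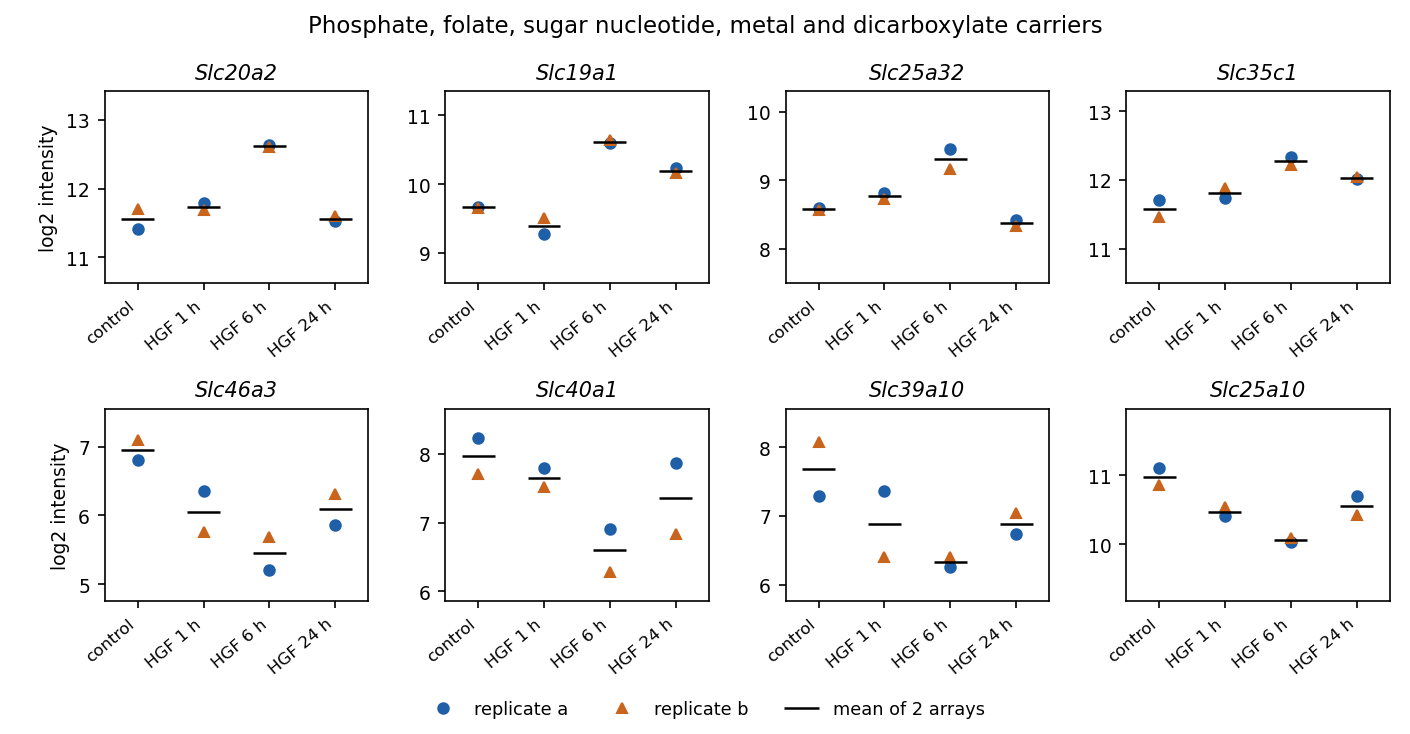
Log2 intensity of 8 members called at 6 h on each array; circles are replicate a, triangles replicate b, and bars the mean of 2 arrays. The upper row holds members that were higher at 6 h and the lower row members that were lower. Slc20a2 and Slc25a32 are near or below control again at 24 h, and Slc40a1 has replicate a above b in all 4 groups.

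At 24 h no member was called against control, and no gene at all was (0% of 8183). By limma, 37 members (24.2%) had an unadjusted p under 0.05, beside 19.9% of all genes. With the block, 3 members were higher and 6 lower, beside 1.99% and 3.39% of all genes. The higher were Slc6a9, Slc25a33 (0.70 ± 0.17, adjusted p = 0.114, and 0.0261 with the block) and Slc7a14. Slc7a14 was undetected in control and at least 1.11-fold higher at 24 h (adjusted p = 0.0812, and 0.0281 with the block). It passed the detection rule only at 24 h, where it was highest. The lower were Slc22a14, Slc25a1, Slc35a5, Slc2a8, the scaffold Slc9a3r2 and Slc22a18, an organic cation carrier. Slc22a18 read 11.19 and 10.74 in control, 11.23 and 10.91 at 1 h, 10.97 and 10.42 at 6 h, and 10.08 and 10.14 at 24 h. Its 24 h arrays were the lowest of all, at -0.86 ± 0.23 against control (adjusted p = 0.129, and 0.0403 with the block). The table normalised by the authors gave 1 call at 24 h.

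Tests between times showed which changes came and went. From 1 to 6 h, 11 members rose and 17 fell, beside 8.33% and 9.04% of all genes. From 6 to 24 h, 10 rose and 13 fell, beside 6.94% and 6.34%. From 1 to 24 h, 2 rose and 4 fell, beside 3.79% and 4.85%. With the block, 19 rose and 24 fell from 1 to 6 h (11.5% and 12.6% of all genes), and 17 and 19 from 6 to 24 h (9.7% and 9.61%). From 1 to 24 h the block gave 3 that rose and 12 that fell (6.46% and 7.75%). All comparisons with 6 h use the same 2 arrays, so a chance deviation of those arrays enters each of them. The count from 6 to 24 h was 23 with all arrays, 5 without HGF 6 h replicate a, 10 without HGF 6 h replicate b, 9 without HGF 24 h replicate a and 3 without HGF 24 h replicate b. The count from 1 to 6 h was 28, and 7 to 15 in the fits without 1 array of HGF 1, 6 or 24 h.

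Amino acid carriers gave several of these calls. From 1 to 6 h, 7 of the 25 fell and none rose, and from 6 to 24 h 7 rose and none fell. Over all genes, 9.04% fell and 8.33% rose in the first interval, and 6.94% rose and 6.34% fell in the second. The 7 that rose from 6 to 24 h were Slc6a9, Slc1a4, Slc38a2, Slc7a5, Slc7a7, Slc36a1 and Slc7a14. Slc36a1, a lysosomal proton-coupled amino acid carrier, was undetected at 6 h and read 5.86 and 6.25 at 24 h, a bound of at least 1.11-fold higher (adjusted p = 0.0285). Slc7a14 was also undetected at 6 h and at least 1.09-fold higher at 24 h (adjusted p = 0.037), a call kept in 2 of 8 other settings. Both genes passed the detection rule only at 24 h, where they were highest, so neither call is independent of that rule. In the nucleotide sugar group the course was the reverse in sign, with none higher and 3 lower at 24 than at 6 h. These were the CMP-sialic acid carrier Slc35a1 (-0.50, adjusted p = 0.0434), the UDP-galactose carrier Slc35a2 (-0.63, adjusted p = 0.0323) and Slc35g1 (-0.59, adjusted p = 0.0474). With median scaling none of the 3 was called.

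Over the 3 times together, the moderated F test called 34 members (22.2%), beside 23.6% of all genes. With the block it called 56 members, beside 34.6% of all genes. Without HGF 6 h replicate a it called 16, and without control replicate a, HGF 24 h replicate a or HGF 24 h replicate b it called 21 each. Both shares lie near those of all genes and are no result about carriers.

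Of other genes of membrane transport, none was called at 1 or 24 h without the block. At 6 h, 9.28% of all genes were called higher and 12.1% lower, or 12.5% and 16.3% with the block. Of 19 genes with symbols of the ABC transporter families, which use ATP, 4 were lower and none higher at 6 h. With the block 6 were lower and 1 higher at 6 h, and 1 was lower at 24 h. The symbol rule also took in Abce1, Abcf1, Abcf2 and Abcf3, which are not transporters. None of these was called at 6 h without the block. The strongest by test was Abcb6, a porphyrin transporter (-1.001 ± 0.12, adjusted p = 0.00214). Of 18 carriers with other symbols and their partners, Slco3a1 was higher, and Slco4a1 and the phosphate exporter Xpr1 were lower, and the block gave 1 higher and 3 lower. Slco4a1, an organic anion carrier, changed by -1.999 ± 0.18 (adjusted p = 0.00122), and Xpr1 by -0.59 ± 0.16 (adjusted p = 0.0342). Of 22 ion pump subunits, 1 was higher, the calcium pump Atp2b1 (1.18 ± 0.18, adjusted p = 0.00498), and 4 were lower, among them Atp6v1d of the vacuolar proton pump (-1.25 ± 0.18, adjusted p = 0.00436). With the block 2 pump subunits were higher and 5 lower at 6 h, and 2 were lower at 24 h.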

How the data were processed

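The submitters' processing notes name GenomeStudio 1.9.0. The authors deposited a non-normalized table with, per probe and array, a linear intensity and a detection p-value against negative control beads, per the file headers. They also deposited a normalized intensity table, and the sources used here do not give its method. Each of its columns ranked probes as the raw array did (Spearman correlation 1), with medians of 129.8 to 129.9. No per-sample column was left out (0). Symbols came from the platform annotation (23978 of 25697 probes with 1 symbol, 0 with several, 1719 with none), matched by gene identifier for 23962 probes.

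Raw intensities were corrected by normexp with detection p-values (offset 16), put on the log2 scale and quantile normalized with limma 3.58.1 in R 4.3.3. The offset makes changes of dim genes too small. Each gene was represented by its brightest probe among those that passed the detection rule. All 8183 genes and 8 arrays were fitted with lmFit and eBayes (4 residual degrees of freedom, 3 with the block), and p-values were adjusted by Benjamini-Hochberg over all genes. The script was tested on simulated data. A gene undetected on both arrays of a group has a bound, set by the lowest signal detected on each dim array or by the gene's own value there, whichever is higher. The number of arrays limits the precision.

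The labels say that the experiment was repeated to give replicates. They imply, without stating it, that a letter marks 1 repeat. The a minus b difference correlated between every pair of groups, at 0.194 to 0.443 across genes, so the blocked counts are given. The blocked p is given mainly for members described singly whose call the block changed.

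Genes were named by rule: up to 12 steepest called rises and falls per time whose arrays lay apart from control, 5 each way between times, members with a bound, those nearest the threshold and a fixed set. Other called members, those called only with the block and the genes of other transport lists were named after their values were seen. The members, substrate groups (by family number) and lists were chosen with earlier results of these data known. Promoter windows and coordinates are from RefSeq (GRCm38.p6), and motifs were chosen after the calls were seen. The alternatives were another normalization, offset, table, detection filter, probe rule, set of arrays, the block and each array left out. 1 Slc symbol is not reported here.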

Additional observations from a re-analysis of the deposited data

Results flagged for a closer look

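Tests of 1 time against another called the members below, whose change therefore differed between times of HGF. All values are log2 differences from limma with the adjusted p after them, and the test was of the difference itself.

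From 1 to 6 h the level rose for the hexose carrier Slc2a6 (1.29, 0.00605), the folate carrier Slc19a1 (1.23, 0.00154) and the phosphate carrier Slc20a2 (0.88, 0.00585). It also rose for the anion exchanger Slc26a6 (0.80, 0.0452) and the zinc carrier Slc39a13 (0.70, 0.0302). In the same interval it was lower for the zinc exporter Slc30a1 (-1.36, 0.00731), the creatine carrier Slc6a8 (-1.35, 0.0118) and the ATP-magnesium carrier Slc25a25 (-1.18, 0.00323). The amino acid carriers Slc1a4 (-1.16, 0.0178) and Slc7a7 (-1.11, 0.00216) were lower as well. With median scaling Slc26a6 and Slc39a13 were not called (adjusted p = 0.104 and 0.0574), and the other members named for this interval were. The Slc26a6 call was also lost in the authors' table (adjusted p = 0.0509).

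From 6 to 24 h the level rose for Slc6a9 (1.77, 0.00181), Slc1a4 (1.64, 0.00622), Slc25a33 (1.01, 0.0102), Slc38a2 (0.95, 0.0175) and Slc25a36 (0.91, 0.0171). It was lower for Slc20a2 (-1.06, 0.00411), the mitochondrial folate carrier Slc25a32 (-0.93, 0.00625) and Slc2a6 (-0.76, 0.0446). The Golgi sodium and proton exchanger Slc9a8 (-0.73, 0.0142) and Slc45a3 (-0.70, 0.0175) were lower too. With median scaling Slc25a32, Slc2a6, Slc9a8 and Slc45a3 were not called, and the other members named for this interval were.

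Between 1 and 24 h, Slc6a9 (0.88, 0.0178) and Slc19a1 (0.81, 0.0106) were higher at the later time. Slc25a25 (-1.64, 0.00159), Slc30a1 (-1.46, 0.00993), Slc22a18 (-0.96, 0.0407) and Slc66a2 (-0.62, 0.0207) were lower. With median scaling Slc22a18 and Slc66a2 were not called, and the other members named for this pair of times were.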

How the results depend on the processing

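Read by 1 representing probe per gene, no result named by rule and called in the main fit or in an alternative had the opposite sign in the other. Other probes of a gene did not enter this check, and some differed in sign at 6 h. Slc44a2 gave -0.70 by its representing probe and 0.21 by another, and Slc22a5 gave -0.07 and 1.00. Of 2117 repeats of named results, 1847 kept the side of the threshold, 199 lost the call and 71 gained it. Many of the named results were not called in the main fit, and a result that stayed uncalled counted as keeping its side. The 199 losses come only from the called results, so their share of 2117 understates how often a call was lost. Changes of sign in results called in neither fit were not counted. With the block on the replicate letter, the counts of members called were 11 at 1 h (5 without it), 49 at 6 h (37), 9 at 24 h (0), 43 from 1 to 6 h (28), 36 from 6 to 24 h (23), 15 from 1 to 24 h (6) and 56 by the F test (34). The blocked fit lost none of the calls against control. Without background correction 8 members were called at 1 h and 1 at 24 h, and the authors' table gave 8 and 1. A fit of only the 4 arrays compared gave 3 at 1 h, 24 at 6 h, 14 from 1 to 6 h and 11 from 6 to 24 h, and 4 lower members of family 25 at 6 h. Median scaling gave 13 from 1 to 6 h and 11 from 6 to 24 h, against 2 higher and 3 lower at 1 h and 4 higher and 26 lower at 6 h, and it moved the median change of all genes at 6 h from -0.03 to -0.16. Without a detection filter, 15 were called from 1 to 6 h.

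Leaving out 1 array in turn gave 1 to 5 calls at 1 h, 17 to 35 at 6 h, 0 in every fit at 24 h, 16 to 27 by the F test, 7 to 24 from 1 to 6 h, 3 to 21 from 6 to 24 h and 1 to 7 from 1 to 24 h. It gave 4 to 7 lower amino acid carriers and 2 to 6 lower members of family 25 at 6 h. These fits have fewer arrays, and a lone array is assumed to vary like the other groups. Calls held in all 8 of them for 1 of 5 members at 1 h, 10 of 37 at 6 h, 6 of 28 from 1 to 6 h, 3 of 23 from 6 to 24 h and 1 of 6 from 1 to 24 h. Signal over background limits the 29 members detected on both arrays in fewer than 4 groups, of which 12 have only a bound in some comparison by the probe that represents them. At 6 h, 7 called members had another probe that did not pass, and 5 members not called had one that did. The cause of these changes was not tested.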

Other observations

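Of the members not called at 6 h, 5 had another, dimmer probe that was. These were Slc22a5, a carnitine carrier (1.00, adjusted p = 0.0396, against -0.07 for its brightest probe), and Slc9a8 (0.90, adjusted p = 0.0259, against 0.32). A further probe of Slc22a5, brighter than the called one, gave -0.15 (adjusted p = 0.572). The other members were the zinc carrier Slc30a7 (0.59, adjusted p = 0.0224, against 0.21), the ATP-magnesium carrier Slc25a24 (0.52, adjusted p = 0.0443, against 0.37) and Slc37a3 (-0.56, adjusted p = 0.0486, against -0.05). A further, dimmer probe of Slc25a24 gave 0.51 (adjusted p = 0.185). Which transcripts these probes read was not tested.

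The E-box CACGTG, the site of Myc and of other factors, was in 14.0% of the 172 promoter windows of members and in 7.15% of all windows. The share is a description with no test, and windows of 1 gene overlap. All windows cover 27025 genes, whether or not detected in these cells, whereas members are detected genes. The share among all detected genes was not computed.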
